A study of Mus musculus with 11 samples.

Results

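The positions described here are the wild-type SA1 peaks at which only a single ring subunit of cohesin, either SMC1 or SMC3, was also called in wild-type cells, and at which SA2 was called in neither genotype. They are called single-subunit positions below. Members were taken from the wild-type SA1 list as the intervals that share at least 1 bp with exactly 1 of the wild-type SMC1 and SMC3 lists and none with the SA2 list of SA1-null or of wild-type cells. This gave 3853 positions of 26602 SA1 intervals (14.5%). SMC1 was the subunit called at 3509 of them (SMC1-only positions), and SMC3 at 344 (SMC3-only positions). In all, 65.6% of SA1 intervals overlapped a wild-type SMC1 peak and 50.1% a wild-type SMC3 peak. The members were thus chosen by the wild-type SA1, SMC1 and SMC3 calls and the SA2 calls of both genotypes, so these counts follow from the rule and are a description. For comparison, 6568 SA1 intervals without SA2 had both SMC1 and SMC3 in wild-type cells (full-ring positions), 7919 without SA2 had neither (no-ring positions), and 1133 with an SA2 peak had a single ring subunit.

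Cohesin is a ring-shaped complex that entraps DNA. SMC1 and SMC3 are long coiled-coil proteins that join at their hinges and whose ATPase heads are bridged by a kleisin, so every ring carries both. A further subunit, SA1 or SA2 (STAG1 or STAG2), binds the kleisin, and the 2 variants are alternatives within a ring. In mammalian interphase cells cohesin is known to accumulate at sites bound by the insulator protein CTCF and to hold the bases of chromatin loops.

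The binding of these subunits was measured by chromatin immunoprecipitation and sequencing (ChIP-seq), in which an antibody recovers the DNA bound by its target and regions rich in reads are called as peaks. The cells were untreated mouse embryonic fibroblasts, primary cells from embryos of stage E12.5, of mixed strain C57BL/6 x 129 Sv. They were SA1-null (antibodies against SA1, SA2, SMC1 and SMC3) or wild type (the same antibodies), and input DNA was pooled from both genotypes. The labels do not say how SA1 was inactivated, nor whether samples came from separate embryos, and each list stands for 1 sample except the SA1-null SMC1 list, whose name gives 2 replicates together.

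The lists differed in length, which bears on every share below. SA1-null cells gave 177 SA1, 6352 SA2, 47003 SMC1 and 34802 SMC3 intervals, against 26602, 7741, 24000 and 15564 in wild-type cells. The lists hold no heights, scores or read numbers, so depth is unknown, and with no expression data the labelled cell type could not be checked. A position without a called subunit is a position where no peak was called, not one shown to lack the protein. With 1 list per group there was no replicate spread and no test between genotypes. Shares carry 95% Wilson intervals and differences of shares 95% Newcombe intervals, and both cover the counting of intervals in these lists only. The 177 SA1-null SA1 peaks, a control for the antibody, fell on 0 of the 3853 single-subunit positions, where a count of 0 allows up to 0.0779%, and on 0.0451% of all SA1 intervals, so that this 0 is near the background. The input lists, which mark regions rich in reads without an antibody, met 1 and 3 of the 3853 positions (0.0260% and 0.0779%), against 0.0376% and 0.184% of all SA1 intervals.

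At most single-subunit positions, the deposited SA1-null lists held a ring peak, and mostly one of each subunit. This held only for the longer lists as deposited. With the SA1-null lists shortened by peak width to the wild-type lengths, 48.6% of the positions had neither subunit. The share over all SA1 intervals was not computed with these shortened lists. Of the 3853 positions, 3237 had both an SMC1 and an SMC3 peak in SA1-null cells (84.0%, interval 82.8 to 85.1%), 339 had SMC1 alone (8.80%), 100 had SMC3 alone (2.60%) and 177 had neither (4.59%, interval 3.98 to 5.30%). Over all wild-type SA1 intervals, 73.3% had both and 17.1% had neither. An SA1-null SMC1 peak was present at 92.8% of single-subunit positions (interval 91.9 to 93.6%), against 80.4% of all SA1 intervals. An SA1-null SMC3 peak was present at 86.6% (interval 85.5 to 87.7%), against 75.7% of all SA1 intervals. The SA1-null lists did not enter the choice of positions, but they were called against the same input as the wild-type SMC lists that did.

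In the lists as deposited, the subunit that was not called in wild-type cells was called at most of these positions in SA1-null cells. At SMC1-only positions, 3047 of 3509 had an SA1-null SMC3 peak (86.8%, interval 85.7 to 87.9%), while SMC1 of SA1-null cells was called at 3262 (93.0%, interval 92.1 to 93.8%). At SMC3-only positions, an SA1-null SMC1 peak was found at 314 of 344 (91.3%, interval 87.8 to 93.8%), and 290 had an SA1-null SMC3 peak (84.3%, interval 80.1 to 87.8%). With the SA1-null lists shortened by peak width to the wild-type lengths, the subunit missing in wild-type cells was called at 29.9% of SMC1-only (SMC3) and 34.9% of SMC3-only positions (SMC1). No share over all SA1 intervals was computed in that setting. In both kinds of position SMC1 was, in the deposited lists, the more frequent SA1-null subunit, whichever had been called in wild-type cells, and the SA1-null SMC1 list was also the longer one. Positions that had only SMC1 in SA1-null cells outnumbered those that had only SMC3, by 304 to 89 among SMC1-only positions and by 35 to 11 among SMC3-only positions. Over all SA1 intervals the counts were 1901 and 651 (7.15% and 2.45%), against 8.80% and 2.60% of single-subunit positions. The imbalance was thus shared by the SA1 list as a whole.

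The SA1-null SMC1 and SMC3 lists share their input with each other and with the wild-type SMC lists. The calls at each position are therefore given side by side, with no test of their agreement. Where SMC1 of an SMC1-only position was called again, SMC3 was present too at 2958 of 3262 (90.7%, interval 89.6 to 91.6%). Where SMC1 was not called again, SMC3 was present at 89 of 247 (36.0%, interval 30.3 to 42.2%). For SMC3-only positions the share with SMC1 was 279 of 290 where SMC3 was called again (96.2%, interval 93.3 to 97.9%) and 35 of 54 where it was not (64.8%, interval 51.5 to 76.2%). Over all SA1 intervals, SMC3 was present at 19492 of the 21393 with SA1-null SMC1. The same 19492 had SMC1 among the 20143 with SA1-null SMC3. The shares where the called subunit was called again thus lay near those of the whole list. Without SA1-null SMC1, 651 SA1 intervals had SMC3 and 4558 had neither. Without SA1-null SMC3, 1901 had SMC1 and the same 4558 had neither.

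SMC1-only and SMC3-only positions had shares within a few points of each other. The SA1-null SMC1 share was higher at SMC1-only positions by 1.68 percentage points, with an interval of -1.02 to 5.23, and the SA1-null SMC3 share by 2.53 points, with an interval of -1.12 to 6.89. Both intervals include 0 and also allow a difference of several points. The 344 SMC3-only positions set the width of these intervals.

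Single-subunit positions stood between full-ring and no-ring positions. The SA1-null SMC3 share was 86.6% at single-subunit positions, 99.1% at full-ring positions and 32.3% at no-ring positions. The SA1-null SMC1 share was 92.8%, 99.5% and 43.2% in the same order. Against full-ring positions the difference was -12.49 points for SMC3 (interval -13.6 to -11.4) and -6.69 points for SMC1 (interval -7.56 to -5.89). It had this direction on 19 of 19 autosomes for each subunit, which are parts of the same lists and not replicates. Single-subunit positions with SA2, which the rule leaves out, had an SA1-null SMC3 peak in 92.5% and an SA1-null SMC1 peak in 95.1%. Relative to these, single-subunit positions without SA2 differed by -5.89 points for SMC3 (interval -7.67 to -3.91) and by -2.25 points for SMC1 (interval -3.66 to -0.628).

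**Figure D1:**
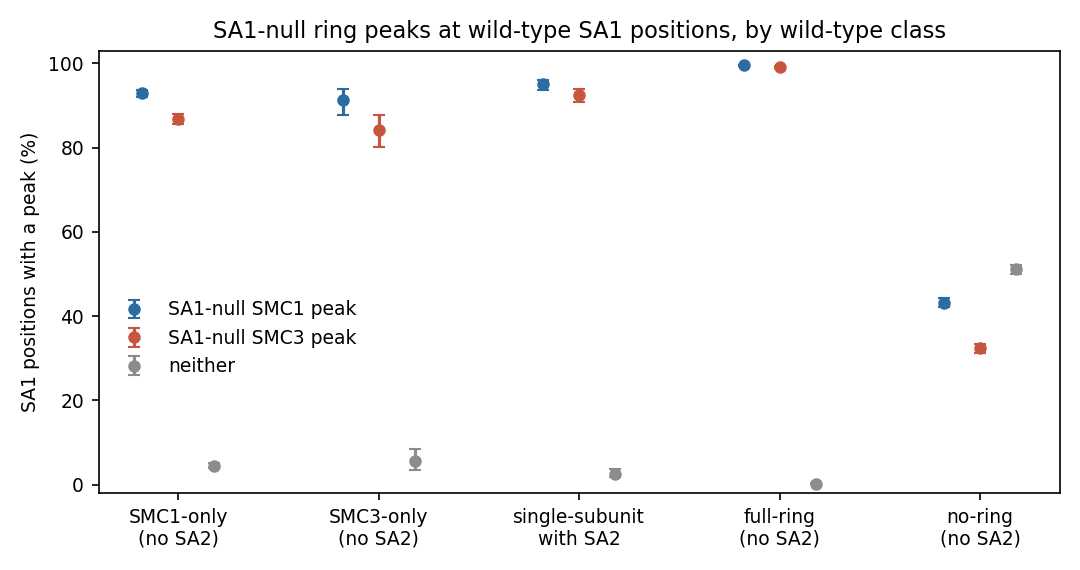
Share of wild-type SA1 positions (y axis, percent) with an SA1-null SMC1 peak, an SA1-null SMC3 peak or neither, by wild-type class (x axis). Points are shares and bars 95% Wilson intervals over positions. SMC1-only and SMC3-only positions lie near each other, with SMC3 at 86.8% and 84.3%, below full-ring positions at 99.1% and above no-ring positions at 32.3%.

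All these shares rest on SA1-null lists that were longer than their wild-type counterparts. When the SA1-null lists were shortened by peak width to the wild-type lengths, the share of single-subunit positions with SMC1 was 44.2% and that with SMC3 29.2%, and 48.6% had neither. How far the shares over all SA1 intervals fall in this setting was not computed. The difference from full-ring positions was then -27.9 points for SMC3, but dropping narrow peaks removes more of them at single-subunit positions, where the SA1-null SMC3 peaks are narrower. The excess of SMC1-only over SMC3-only positions turned round when the wild-type SMC1 list was shortened in the same way: at the length of the SMC3 list, SMC1 was the subunit called at 43.0% of 3708 single-subunit positions, against 91.1% of the 3853. List length and the loss of narrow peaks change together in this setting. Depth and a gain of the missing subunit in SA1-null cells cannot be told apart here.

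The wild-type ring peaks at single-subunit positions were narrow for their lists, with SA2 as well as without. The wild-type SMC1 peak at SMC1-only positions had a median width of 510 bp (quartiles 431 and 598), against 601 bp (518 and 679) at full-ring positions. It was narrower than the median of its own list, 579 bp, at 69.9% of SMC1-only positions and at 42.4% of full-ring positions. The wild-type SMC3 peak at SMC3-only positions had a median of 456.5 bp (quartiles 395 and 539), against 551 bp (471 and 628) at full-ring positions, and was narrower than its list's median of 563 bp at 81.7% and 53.7%, in that order of classes. At single-subunit positions with SA2 the medians were close, 525 bp for SMC1 and 462.5 bp for SMC3. There, 66.7% and 80.5% of the peaks were narrower than the median of their list. Since the rule reads these lists, the wild-type ring widths are a description. The SA1 peaks differed less, with a median of 513 bp (quartiles 426 and 608) at single-subunit positions, 542 bp (458 and 632) at full-ring positions and 454 bp (382 and 547) at no-ring positions. With SA2 the median SA1 width was 574 bp at single-subunit and 630 bp at full-ring positions. The difference of -29 bp between the medians without SA2 was -60 bp with SA2 ignored and -6 bp in the widest 50% of SA1 intervals (interval -11.8 to 0.403, which includes 0).

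The SA1-null ring peaks at the same positions showed the same order of classes. At single-subunit positions, 54.1% (SMC1) and 59.7% (SMC3) of them were narrower than the median of their list. SA1-null SMC1 peaks had a median of 522 bp (quartiles 430 and 613) at single-subunit positions, 592 bp at full-ring positions and 462.5 bp at no-ring positions. SA1-null SMC3 peaks had medians of 619 bp (quartiles 529 and 703), 696 bp and 570 bp in the same order. The peak of the same antibody at the same position could be set beside its wild-type partner where both were called. At 3262 SMC1-only positions the SMC1 peak was 525 bp in SA1-null and 516.5 bp in wild-type cells (medians), with a median difference of 13 bp, and was wider in SA1-null cells at 53.2%. At 6535 full-ring positions the median SMC1 difference was -3 bp. Positions of 1 list per genotype are not replicates, and the SA1-null SMC1 list takes 2 samples together, so these differences carry no interval. SMC3 peaks were wider in SA1-null cells in both classes, by a median of 119 bp at 290 SMC3-only positions and 141 bp at 6509 full-ring positions. Over the whole lists the SMC3 medians were 652 bp in SA1-null and 563 bp in wild-type cells, so the wider SMC3 peaks were shared by the list as a whole.

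**Figure D2:**
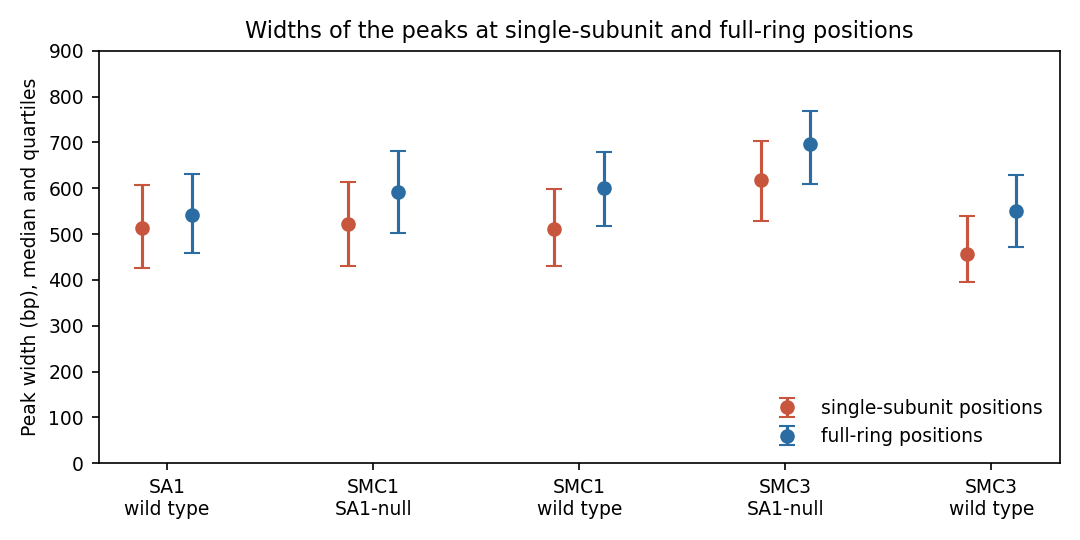
Median width (y axis, bp) of the SA1, SMC1 and SMC3 peaks at single-subunit and full-ring positions, with bars from the lower to the upper quartile. In each of the 5 lists the single-subunit median is the lower of the pair, 513 against 542 bp for SA1 and 510 against 601 bp for wild-type SMC1.

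The lower SA1-null shares of single-subunit positions were also seen within classes of peak width. Widths can still differ inside a class, so they were not matched. In 5 classes of SA1 width that each hold about 20% of the SA1 list, the SA1-null SMC3 share of single-subunit positions was 83.1%, 85.9%, 86.8%, 87.7% and 91.6% from the narrowest to the widest class. Full-ring positions had 98.8%, 98.7%, 99%, 99.6% and 99.3%. The share of SA1 intervals that were single-subunit positions was 16.1%, 16.3%, 15.8%, 13.9% and 10.2% over the same classes. Classes by the width of the wild-type SMC1 peak gave a steeper series at SMC1-only positions, with 78.1%, 88.3%, 92.1%, 93.9% and 95.4% from narrow to wide, against 97.2%, 98.0%, 99.5%, 99.8% and 99.9% at full-ring positions. The narrowest of these SMC1 classes, from 189 to 460 bp, held 34.3% of SMC1-only and 12.7% of full-ring positions. The part that peak strength has in these differences was not tested, because the lists hold no heights.

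**Figure D3:**
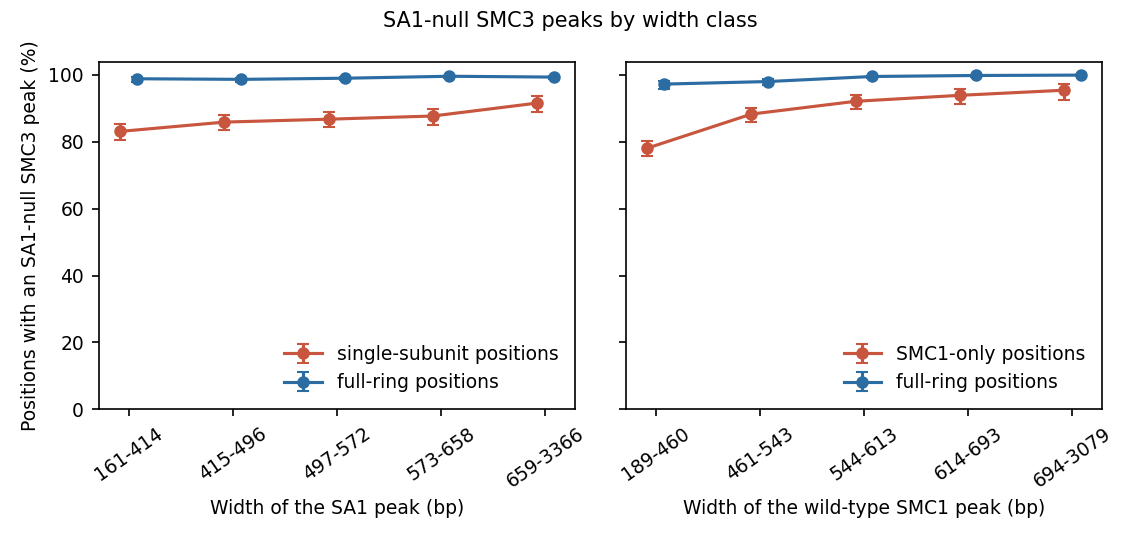
Share of positions with an SA1-null SMC3 peak (y axis, percent, with 95% Wilson intervals) in 5 classes of SA1 peak width (left) and of wild-type SMC1 peak width (right). The single-subunit and SMC1-only points lie below the full-ring points in all 5 classes of both panels, and the SMC1-only share is 78.1% in the narrowest and 95.4% in the widest class.

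A ring peak counted as called only where it overlapped the SA1 interval. That it lies over the SA1 peak thus follows from the rule, and the offsets below are a description. The centre of the wild-type SMC1 peak was a median of 50.5 bp (quartiles 22.5 and 86.5) from the SA1 centre at SMC1-only positions, and that of the wild-type SMC3 peak 58.5 bp (quartiles 27.5 and 89.8) at SMC3-only positions. At full-ring positions the medians were 46.5 bp for SMC1 and 45.5 bp for SMC3. For the subunit that appeared in the SA1-null list, again only peaks that overlap the SA1 interval were counted, and the offsets were similar. The SA1-null SMC3 peak was 50.5 bp from the SA1 centre at SMC1-only positions and covered a median of 99.1% of the SA1 interval. The SA1-null SMC1 peak was 46.2 bp from it at SMC3-only positions and covered 86.7%. Ring peaks were rarely split between positions, since the 3509 SMC1-only positions lay on 3492 different SMC1 peaks and the 344 SMC3-only positions on 342 SMC3 peaks.

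The rule excludes overlap with the subunit not called, so that a gap to its nearest peak exists follows from the choice of positions. The gap was usually far longer than a peak is wide. From SMC1-only positions the nearest wild-type SMC3 peak was a median of 30184 bp away (quartiles 9050 and 77448), and from SMC3-only positions the nearest wild-type SMC1 peak was 19634.5 bp away (quartiles 5412 and 47696). The gap was 200 bp or less at 38 SMC1-only positions (1.08%) and 11 SMC3-only positions (3.20%), and 1000 bp or less at 176 (5.02%) and 29 (8.43%). The SMC3 list, in which the partner of SMC1-only positions was sought, was the shorter one. From no-ring positions, which overlap neither wild-type ring list, the median gaps were 45079 bp to SMC3 and 26762 bp to SMC1. There, 3.57% (SMC3) and 6.05% (SMC1) of the gaps were 1000 bp or less. Long gaps were therefore not particular to single-subunit positions. The nearest SA2 peak was a median of 95973 bp away in SA1-null and 77215 bp in wild-type cells. The SA2 lists were shorter than both ring lists, with 6352 and 7741 intervals, and the rule excludes overlap with them. These distances therefore cannot be ranked against those to the ring peaks. From full-ring positions the SA2 distances were 84851 bp and 72849 bp.

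**Figure D4:**
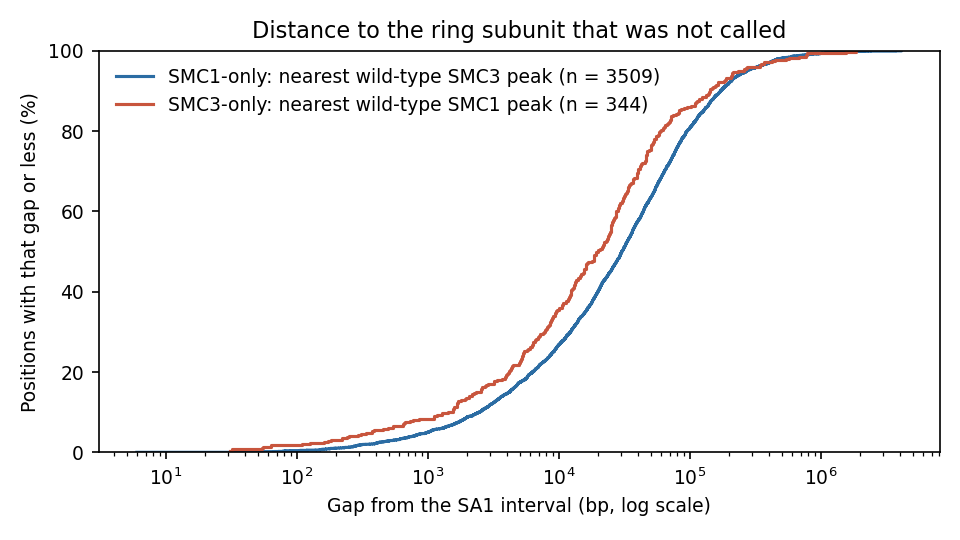
Share of positions (y axis, percent) whose nearest wild-type peak of the ring subunit not called lies within a given gap of the SA1 interval (x axis, bp, log scale), for 3509 SMC1-only and 344 SMC3-only positions. Both curves are near 0 up to 100 bp, and the medians are 30184 bp and 19634.5 bp. The rule excludes overlap with the subunit not called.

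Few members turned on the 1 bp limit of the rule. The 5 smallest overlaps with the called subunit were 2, 4, 4, 8 and 14 bp, and 12 positions shared fewer than 50 bp. The 5 smallest gaps to the subunit not called were 6, 31, 31, 32 and 32 bp, and 9 positions had a gap under 50 bp. Just outside the class, the 5 nearest no-ring positions missed a ring peak by 5, 5, 8, 9 and 9 bp, and 25 missed one by fewer than 50 bp. The 5 full-ring positions closest to losing a subunit shared 3, 7, 14, 19 and 20 bp with it, and 9 shared fewer than 50 bp.

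Single-subunit positions made up a larger share of the SA1 intervals on chromosome X than on any autosome. Of 765 SA1 intervals on X, 166 were single-subunit positions (21.7%, interval 18.9 to 24.8%), against 14.2% ± 1.001 (SD over 19 autosomes, from 12.6 to 16.2%). Full-ring positions made up 19.3% of the SA1 intervals on X, against 24.9% ± 1.63 on autosomes, and no-ring positions 41.6%, against 29.5% ± 2.83. Among intervals with no SA2 and at least 1 wild-type ring subunit, 166 of 314 on X had a single subunit (52.9%, interval 47.3 to 58.3%), against 36.4% ± 2.35 on autosomes, where the highest was 41.1%. With SA2 ignored, the share was 47.1% on X and 27.4% ± 1.71 on autosomes. SMC1 was the subunit called at 150 of the 166 positions and SMC3 at 16, a share of SMC3-only positions of 9.64% on X and 8.90% ± 1.06 on autosomes.

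In SA1-null cells the single-subunit positions of X had ring peaks at shares close to those of autosomes. An SA1-null SMC3 peak was present at 143 of 166 on X (86.1%, interval 80.1 to 90.6%) and at 86.6% of 3687 on autosomes, and an SA1-null SMC1 peak at 91.0% (interval 85.6 to 94.5%) and 92.9%. Over all SA1 intervals the shares on X were lower, at 66.3% on X and 76% on autosomes for SMC3 and 70.8% and 80.7% for SMC1. The intervals for the 166 positions on X allow differences of several points either way. Whether the embryos were male or female is not in the labels, so the number of X copies per cell is unknown and its part was not tested.

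**Figure D5:**
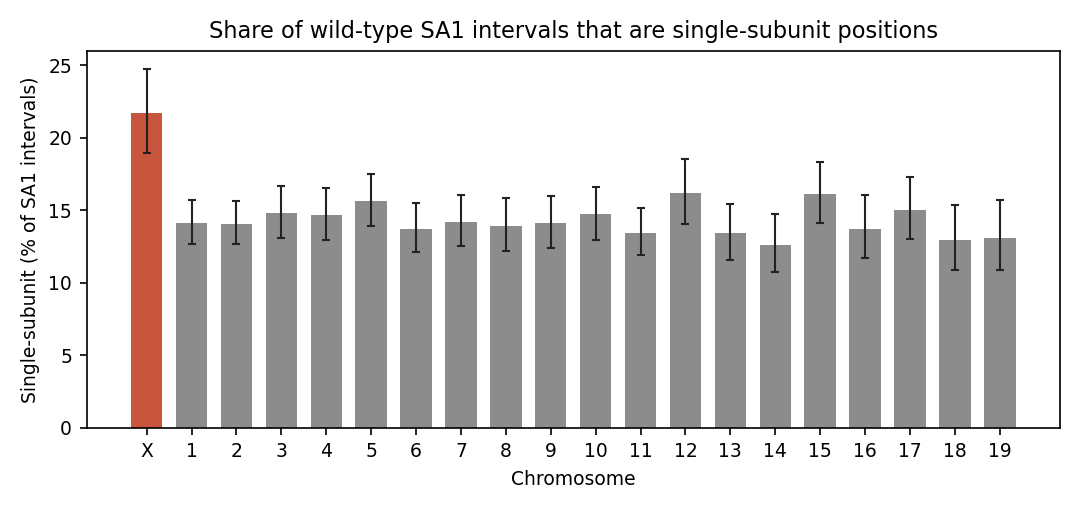
Share of wild-type SA1 intervals that are single-subunit positions (y axis, percent) on chromosome X and on each of the 19 autosomes (x axis), with 95% Wilson intervals. X stands at 21.7%, and the autosomes lie between 12.6% and 16.2%.

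Individual positions are named by the width of their SA1 interval, the 3 widest for each wild-type subunit and each state in SA1-null cells, with mm9 coordinates. Width is the only measure the lists hold, and the widest positions are not typical. No genes are assigned to them, as no gene table in mm9 coordinates was at hand.

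Among the 2958 SMC1-only positions with both ring subunits in SA1-null cells, the widest lay on chromosome 10 from 98726811 to 98728578. Its SA1 interval of 1768 bp shared 518 bp with a wild-type SMC1 peak of 594 bp. It met SA1-null peaks of 1055 bp for SMC1 and 771 bp for SMC3, and a wild-type SMC3 peak lay 611 bp beyond its edge. The next, on chromosome 9 from 117160307 to 117161898, had SA1-null SMC1 and SMC3 peaks of 921 and 1157 bp, against a wild-type SMC1 peak of 465 bp. In both, the SMC1 peak was wider in SA1-null than in wild-type cells. The third, on chromosome 2 from 60800736 to 60802321, stood out for SA1-null peaks of 2353 bp (SMC1) and 2409 bp (SMC3), against 824 bp for wild-type SMC1, and its nearest wild-type SMC3 peak was 56922 bp away.

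The 279 SMC3-only positions with both SA1-null subunits included the widest SA1 interval of the whole class, on chromosome 13 from 29043477 to 29046028. It spanned 2552 bp and overlapped SA1-null peaks of 1036 bp (SMC1) and 1123 bp (SMC3), against a wild-type SMC3 peak of 512 bp. A wild-type SMC1 peak lay 544 bp outside it. On chromosome 13 from 103695598 to 103696827, the SA1-null peaks of 1814 bp (SMC1) and 1262 bp (SMC3) stood against a wild-type SMC3 peak of 673 bp. On chromosome 16 from 30065292 to 30066470, an SA1-null SMC1 peak of 1555 bp and SMC3 peak of 751 bp stood against a wild-type SMC3 peak of 445 bp. This last position missed a wild-type SMC1 peak by 160 bp, so its class hangs on a short gap.

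A single SA1-null subunit at an SMC1-only position was SMC1 in 304 cases. The widest of these, on chromosome 3 from 5218057 to 5219063, shared only 14 bp with its wild-type SMC1 peak. On chromosome 3 from 142284015 to 142285005, an SA1-null SMC1 peak of 566 bp stood against one of 454 bp in wild-type cells, with the nearest SA1-null SMC3 peak 23790 bp away. On chromosome 16 from 24495459 to 24496356, the SMC1 peaks were 512 bp in SA1-null and 557 bp in wild-type cells, and an SA1-null SMC3 peak lay 292 bp outside the SA1 interval. These 3 positions therefore range from a marginal overlap to an SMC1 peak that lay wholly within the SA1 interval.

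At 89 SMC1-only positions the SA1-null subunit was SMC3, the reverse of the wild-type call. On chromosome 4 from 28740987 to 28742547, an SA1-null SMC3 peak of 1128 bp stood against a wild-type SMC1 peak of 576 bp, and the nearest SA1-null SMC1 peak was 496 bp outside the SA1 interval. On chromosome 10 from 98375904 to 98376847, the SA1-null SMC3 peak was 1313 bp and the wild-type SMC1 peak 876 bp wide. On chromosome 4 from 3574013 to 3574758, the SA1-null SMC3 peak of 489 bp was 37516 bp from any SA1-null SMC1 peak, measured from the SA1 interval. Only this last position was far from SMC1 in SA1-null cells.

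SMC3-only positions with SMC1 alone in SA1-null cells numbered 35. The widest SA1 interval among them ran from 97289488 to 97290303 on chromosome 4, the next from 146956488 to 146957252 on chromosome 6, and another from 46151127 to 46151835 on chromosome 16. Their SA1-null SMC1 peaks of 281, 390 and 323 bp were narrow for a list with a median of 535 bp, and the wild-type SMC3 peaks there were 458, 553 and 328 bp wide. The 11 positions that kept SMC3 alone included an interval from 80592207 to 80592953 on chromosome 17 and a pair on chromosome 1, from 21438140 to 21438839 and from 108780290 to 108780945. The SMC3 peaks there were 474, 557 and 514 bp wide in SA1-null cells, against 341, 689 and 395 bp in wild-type cells. All 6 lay more than 10000 bp from the ring subunit not called in the wild type.

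No ring peak was called in SA1-null cells at 158 SMC1-only and 19 SMC3-only positions, 4.59% of single-subunit positions. The share was 0.183% of full-ring positions (12 of 6568), 51.1% of no-ring positions and 17.1% of all SA1 intervals. At the 177 positions with neither SA1-null subunit, the wild-type ring peak had a median of 451.5 bp for SMC1 and 419 bp for SMC3. The medians were 523 and 471 bp at the positions with both SA1-null subunits. Positions with SMC1 alone or SMC3 alone in SA1-null cells were close to those with neither. Their medians were 448 and 465 bp at SMC1-only positions, and 424 and 417 bp at SMC3-only positions. An SA1-null SMC1 peak lay within 1000 bp of 18 of the 177 positions (10.2%), and an SA1-null SMC3 peak within 1000 bp of 19 (10.7%). At no-ring positions with neither SA1-null subunit these shares were 7.3% and 6.1%, and at the 12 such full-ring positions 0%. The widest SMC1-only case, on chromosome 10 from 9394154 to 9395574, had an SA1 interval of 1421 bp and a wild-type SMC1 peak of 1074 bp lying wholly inside it, and the nearest SA1-null SMC1 and SMC3 peaks were 1083 and 1043 bp away. The second, on chromosome 17 from 44872726 to 44873797, had a wild-type SMC1 peak of 621 bp, with SA1-null SMC1 at 1064 bp and SMC3 at 1207 bp. The third, on chromosome 7 from 78555967 to 78556863, met its wild-type SMC1 peak over 34 bp, and an SA1-null SMC3 peak ended next to it with no shared base. In all 3 an SA1-null ring peak was closer than is typical. Over the 177 positions the median gap was 15531 bp to SA1-null SMC1 and 19399 bp to SA1-null SMC3. The 3 widest SMC3-only cases had SMC1 gaps above that median, but so few positions do not set the subclasses apart. Among these SMC3-only cases, the interval from 83457571 to 83458473 on chromosome 10 had its nearest SA1-null SMC1 peak 19780 bp away. For the next, from 64538957 to 64539639 on chromosome 8, that gap was 19351 bp, and for the interval from 59781899 to 59782562 on chromosome 17 it was 83243 bp.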

How the data were processed

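ChIP-seq intervals for SA1, SA2, SMC1 and SMC3 in SA1-null and wild-type fibroblasts and for 2 inputs were analysed, 10 lists from 11 samples. The deposited lists hold positions (chromosome, start and end in bp) and no score. The names of the lists give a false discovery rate of 10 for the authors' calls, without a unit. Per the submitters' processing notes, coordinates are of mm9 and CASAVA 1.7 took part; the sources used here name neither aligner nor peak caller. The SA1-null SA1 list and all SMC lists were called against one input, the other SA lists against the other, per the same names.

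Overlap meant 1 bp or more, starts, 0-based in the lists, are printed 1-based, and of several overlapping peaks the one sharing most bases gave the width. Computation used Python 3.11.15, numpy 2.4.6 and scipy 1.17.1. Overlap counts of the SA1 list with 9 lists equalled those of bedtools 2.31.1, and 15253 planted overlaps and gaps were recovered in a test on simulated data. Intervals of medians are of order statistics and cover these lists only. Positions, classes and tables were chosen with earlier results of these data known. Alternatives were a 50% overlap, a 200 bp gap tolerance, merging below 1000 bp, removal of background intervals or chromosome X, and lists shortened by width. Named positions were the 3 widest of 8 cells formed by wild-type subunit and SA1-null state, 24 in all. Sequences were not analysed here.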

Additional observations from a re-analysis of the deposited data

How the results depend on the processing

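Of 98 comparisons of 11 results under 9 alternatives, 72 stayed within the interval of the reported value (for the count of positions, within 1.5 times), and 26 moved. No difference changed sign, but the majority among single-subunit positions turned from SMC1-only to SMC3-only with a shortened SMC1 list (below). The 50% overlap, the 200 bp tolerance, merging, removal of background intervals and removal of chromosome X moved none of the results they were run on (10 for removal of chromosome X, 11 for the others). Shortening by width drops narrow peaks, so length and width change together, and as the ring peaks of single-subunit positions are the narrower ones, shortened SA1-null lists call fewer of them by construction. With the SA1-null lists shortened, the share of single-subunit positions was 44.2% with SMC1, 29.2% with SMC3 and 48.6% with neither; SMC3 was at 29.9% of SMC1-only and SMC1 at 34.9% of SMC3-only positions, and the SMC3 difference from full-ring positions was -27.9 points. With the wild-type SMC1 list shortened to the SMC3 length, SMC1 was the called subunit at 43.0% (1595 SMC1-only and 2113 SMC3-only positions), and the shares were 96.8% (SA1-null SMC1), 94.2% (SA1-null SMC3), 1.81% (neither), 92.5% (SMC3 at SMC1-only) and 97.5% (SMC1 at SMC3-only), with a difference of -5.47 points and a median SA1 width of 524 bp. The widest 50% of SA1 intervals held 1676 single-subunit positions, with 94.2% (SA1-null SMC1), 88.8% (SA1-null SMC3), 3.58% (neither) and, for SMC3 at SMC1-only positions, 89.5%, a difference of -10.5 points, a median width of 622 bp and a width difference from full-ring positions of -6 bp (interval -11.8 to 0.403, which includes 0). Ignoring SA2, an alternative chosen after the data were seen, gave 88.0% with SA1-null SMC3, 88.3% at SMC1-only positions, a median width of 526 bp and a width difference of -60 bp, since positions with SA2 have wider SA1 peaks. The width classes were also added after the data were seen. Shares over all SA1 intervals were not computed under the alternatives. A stricter threshold could not be applied, as the lists hold no score, and depth is unknown. No paired analysis was possible because each group has 1 list, and the 2 SA1-null SMC1 replicates share theirs, so neither could be left out.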

Other observations

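Single-subunit positions were spread along the genome among other SA1 positions. The nearest other SA1 interval was a median of 15848 bp away (quartiles 4212 and 41310), against 15140 bp for full-ring positions, 19613 bp for no-ring positions and 17068.5 bp for all SA1 intervals. That neighbour was itself a single-subunit position for 639 of 3853 (16.6%), against 15.0% for all SA1 intervals. It was a full-ring position for 26.7%, against 25.1% for all SA1 intervals, and a no-ring position for 27.8%, against 29.1%. These shares lay near those of all SA1 intervals.

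In windows of 1 Mb, 1664 of the 2412 that hold an SA1 interval had a single-subunit position (69.0%), with a median of 1 and at most 10. The window with 10 lay on chromosome 8 from 129000001 to 130000000 and held 31 SA1 intervals. The windows from 110000001 to 111000000 of chromosome 10 and from 80000001 to 81000000 of chromosome 15 held 9 each, of 21 and 22 SA1 intervals. In the 246 windows richest in SA1, with 21 or more intervals, 15.5% of SA1 intervals were single-subunit positions (interval 14.6 to 16.4%), against 14.2% (interval 13.7 to 14.7%) in the other windows.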
